A study of Mus musculus with 3 samples.

Results

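The protein kinase C isoform genes Prkca, Prkcb, Prkcd and Prkcz, the calcineurin catalytic subunit genes Ppp3ca and Ppp3cb, and the transcription factor gene Nfatc1 were followed across 3 arrays of a malignant murine B-1 cell line. All probe sets annotated to these 7 symbols were taken, which gave 10 of the 12588 probe sets of the array that are not controls, and 7 of the 8220 genes named by a single symbol. Prkca and Nfatc1 were chosen because they read higher on the antisense-labelled array than on both controls, so these 2 were selected on the very intensities described here and their differences are a description. The cells, LNC, were established from the lymph node of a 1-year-old New Zealand Black mouse. On 1 array the cells had been given 20 µM of an antisense oligonucleotide to IL-10, on 1 a scrambled oligonucleotide, also at 20 µM, which controls for effects of oligonucleotides as such, and on 1 no oligonucleotide, with RNA taken at 24 h. The cells of the 3 groups are of the same line and differ, per the labels, only in the oligonucleotide. The labels do not say how many cultures stand behind an array. Each group has a single array, so replicate error could not be measured and no test was run.

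Protein kinase C enzymes add phosphate to serine and threonine residues of other proteins after receptors have switched on phospholipase C. Its product diacylglycerol activates the classical isoforms, which include alpha and beta, together with calcium, and the isoforms of the delta type without calcium, while the atypical zeta isoform needs neither. The calcium that phospholipase C releases also binds calmodulin, which activates the phosphatase calcineurin, and calcineurin removes phosphate from NFAT proteins so that they enter the nucleus. In B cells this pathway lies downstream of the antigen receptor, and mice without Prkcb or Nfatc1 are known to have few B-1 cells.

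Intensities are on a linear scale after scaling of the arrays to a common level, and values under a noise floor of 595.9 were treated as not distinguishable from it. Differences are given on the log2 scale. The only measure of error is how far apart the 2 control arrays lie. Over the 300 probe sets closest in level to a given one, 95% differed between these controls by less than a limit called the control spread. This limit amounts to 2.28-fold for an intensity of 1000 and to 1.30-fold for 8000, and an effect of the scrambled oligonucleotide would widen it. Il10, the targeted gene, read 13946 in its probe set 100319_at on the antisense-labelled array, against 5616 with the scrambled oligonucleotide and 5164 in untreated cells. The targeted RNA was thus not lower there, so the array is called by its label, and every direction below rests on that label. Of the B cell markers, 6 of 7 on the array were above the floor on the 3 arrays. The values above 0 of the 7 summed to 209293 on the antisense-labelled array, 271181 with the scrambled oligonucleotide and 239202 in untreated cells. Most of each sum came from 1 Ighm probe set, 93583_s_at, at 145518, 183787 and 155216 in the same order. Other Ighm probe sets above the floor went in either direction. Cd79a, Ms4a1 and Pax5 were lowest on the antisense-labelled array, Blk lay between the controls, and Cd79b was highest there. Cd22 and the B-1 markers Cd5, Spn and Itgam did not exceed the floor on any array. Of the 8 T cell markers 7 did not exceed the floor on any array, Cd3e, Cd3d and Cd3g among them. Cd4 was above it on the 3 arrays, at 1266 on the antisense-labelled array, 2339 on the scrambled one and 1349 on the untreated one. Of the 7 myeloid markers 3, Cd14, Elane and Cd68, were above the floor on the 3 arrays, and Lyz2 and Adgre1 on none. Cd14 read 1088 on the antisense-labelled array, 1563 on the scrambled one and 2061 on the untreated one. In the same order Cd68 read 1331, 767.5 and 854.5 in its brighter probe set, and Elane 706, 769 and 773. The values above 0 of all 7, also those below the floor, summed to 3812.5, 3898 and 4966. The last sum includes Csf1r at 949, which was below the floor on the other arrays. In RNA of whole cultures, fewer cells of a type and less RNA per cell cannot be told apart, and the part of these differences in the results was not tested.

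The promoters of Prkca and Prkcb are shown because these classical isoforms are activated in the same way, and their probe sets differ in how far apart the arrays are. The sequences are the 250 bases before the RefSeq start of each gene, GRCm38.p6, on the gene's strand, at chr11:108343889-108344138 on the minus strand for Prkca and chr7:122288875-122289124 on the plus strand for Prkcb. Capitals mark the GC box GGGCGG on either strand.
Prkca: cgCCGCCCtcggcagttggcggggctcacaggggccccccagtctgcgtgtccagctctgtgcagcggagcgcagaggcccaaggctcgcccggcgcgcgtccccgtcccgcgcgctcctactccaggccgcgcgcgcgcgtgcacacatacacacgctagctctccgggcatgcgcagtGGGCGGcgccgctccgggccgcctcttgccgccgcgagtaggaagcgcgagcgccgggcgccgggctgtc
Prkcb: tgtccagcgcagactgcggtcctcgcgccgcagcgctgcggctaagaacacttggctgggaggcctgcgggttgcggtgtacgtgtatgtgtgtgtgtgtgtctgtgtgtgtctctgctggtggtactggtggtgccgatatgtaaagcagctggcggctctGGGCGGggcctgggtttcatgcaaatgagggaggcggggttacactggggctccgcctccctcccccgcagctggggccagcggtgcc

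Over windows that also take in the first 50 bases after the start, Prkca had 42 CpG pairs in 300 bases, more than 97% of the 32851 promoter windows in the RefSeq table, and a GC content of 75.3%. Prkcb had 19 CpG pairs and a GC content of 65.3%, and the median window had 7 pairs and 52.7%. The GC box was found at 2 places in the Prkca window and at 1 in that of Prkcb, and 35.7% of all windows hold it. The letters GGAAA, the core bound by NFAT proteins, were found on neither strand of these 2 windows, where 61.3% of all windows hold them. The window of Ppp3cb held GGAAA at 4 places. The AP-1 letters TGANTCA, which 7.81% of all windows hold, were in none of the 8 windows taken for 5 genes of the group. Windows on chromosome 18, where Nfatc1 lies, were left out, and Ppp3ca had no window. These letters were thus not looked for in the promoters of Nfatc1 and Ppp3ca.

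Prkca encodes the classical alpha isoform. Its only probe set, 102299_at, read 2295 on the antisense-labelled array, against 665 with the scrambled oligonucleotide and 796 in untreated cells. The antisense-labelled array was the high one, and both controls lay little above the floor. The difference was 1.79 against scrambled and 1.53 against untreated, or 3.45-fold and 2.88-fold, where the control spread at this level is 1.19. Between the controls themselves Prkca differed by -0.26, scrambled minus untreated. Ranked by the smaller of its differences from the controls, the probe set stood 7th of the 4539 probe sets above the floor on the 3 arrays and 18th of the 6127 past the filter. Some differences among the 6127 are minima. Prkca was picked for being higher than both controls, so its rank only describes the selection.

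Nfatc1, which encodes the calcineurin-regulated factor also known as NFAT2, was read by 1 probe set, 102209_at. Its intensity was 3124 on the antisense-labelled array, against 1205 with the scrambled oligonucleotide and 1151 in untreated cells. The controls were close to each other, with a difference of 0.07, and the antisense-labelled array was the high one. The difference of Nfatc1 was 1.37 against scrambled and 1.44 against untreated, or 2.59-fold and 2.71-fold, and the control spread at its level is 0.87. By the same ranking Nfatc1, picked in the same way as Prkca, stood 11th of 4539 and 29th of 6127. No second probe set of Prkca or Nfatc1 is annotated, so neither value has a check within the array. A count of 2-fold differences below can miss a gene with a value under the floor, since its difference is then a minimum.

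**Figure D1:**
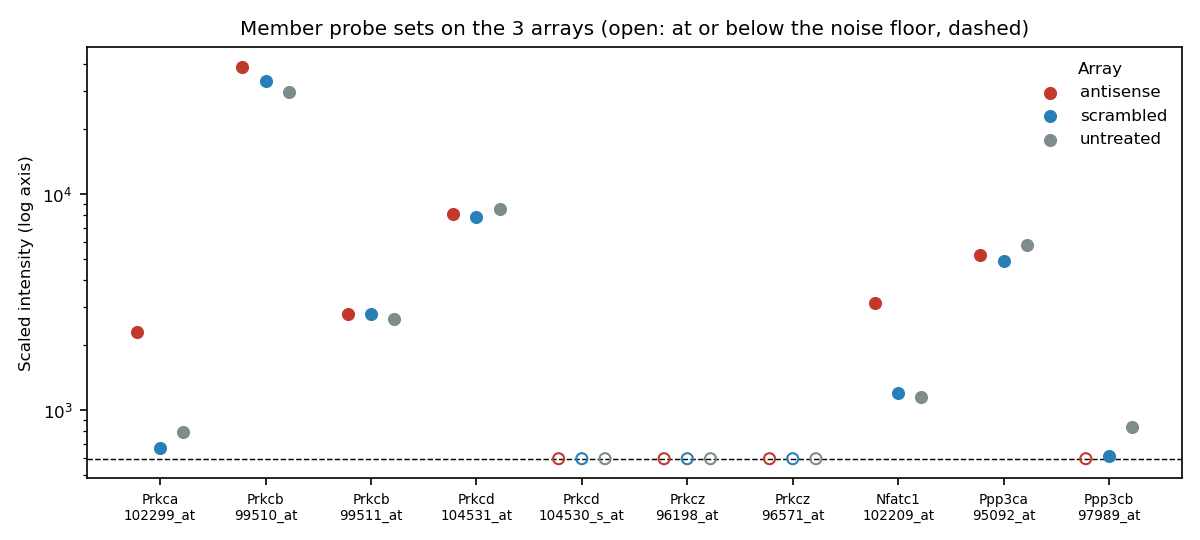
Scaled intensity on a log axis for the 10 probe sets of the 7 genes, with 1 point per array in the order antisense, scrambled, untreated, and the noise floor of 595.9 as a dashed line (open points lie at or below it). Prkca and Nfatc1 read 2295 and 3124 on the antisense-labelled array, above both controls, while the arrays lie close together for Prkcb, Prkcd and Ppp3ca.

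Prkcb encodes the beta isoform, which couples the B cell antigen receptor to NF-kB. Its brighter probe set, 99510_at, read 39041 on the antisense-labelled array, against 33495.5 with the scrambled oligonucleotide and 29634 in untreated cells. The antisense-labelled array was again the highest, but the steps were small. The Prkcb difference was 0.22 against scrambled, within the control spread of 0.32, and 0.40 against untreated, above it. A second probe set of Prkcb, 99511_at, read 2781 on the antisense-labelled array, against 2804 with the scrambled oligonucleotide and 2651 in untreated cells, and differed by -0.01 from scrambled and 0.07 from untreated. The larger difference of the brighter probe set was thus not seen in the other one, whose control spread is wider, at 0.75.

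Prkcd encodes the delta isoform, which restrains B cells that react to self. Its probe set 104531_at read 8116.5 on the antisense-labelled array, against 7873 with the scrambled oligonucleotide and 8593 in untreated cells. The antisense-labelled array lay between the controls, with Prkcd differences of 0.04 from scrambled and -0.08 from untreated at a control spread of 0.40. A second Prkcd probe set, 104530_s_at, read -192.7 on the antisense-labelled array, 97.4 with the scrambled oligonucleotide and 178 in untreated cells, all below the floor. The suffix marks a probe set that can bind transcripts of more than 1 gene.

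Prkcz encodes the atypical zeta isoform. Its probe set 96198_at read -426.5 on the antisense-labelled array, against 148 with the scrambled oligonucleotide and 167 in untreated cells, and 96571_at read -823.5, -79.6 and -317 on these arrays in the same order. All 6 values lie below the floor, so Prkcz was not detectable on these arrays, and no difference is given.

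Ppp3ca encodes the alpha form of the calcineurin catalytic subunit. Its probe set 95092_at read 5247 on the antisense-labelled array, against 4923 with the scrambled oligonucleotide and 5801 in untreated cells. Here too the antisense-labelled array lay between the controls, with Ppp3ca differences of 0.09 from scrambled and -0.14 from untreated at a control spread of 0.48. Ppp3cb encodes the beta form of that subunit. Its probe set 97989_at read 316 on the antisense-labelled array, below the floor, against 610.5 with the scrambled oligonucleotide and 831.5 in untreated cells. Ppp3cb passed the filter only through the controls. With the value on the antisense-labelled array set to the floor, Ppp3cb was at least 1.02-fold lower than on the scrambled and at least 1.40-fold lower than on the untreated array, or -0.03 and -0.48 on the log2 scale, where the control spread is 0.59.

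Of the 10 probe sets, 7 passed the filter, and 3, both of Prkcz and the suffixed one of Prkcd, were at the floor on the 3 arrays. Of the 7, 2 were at least 2-fold higher on the antisense-labelled array than on both controls, those of Prkca and Nfatc1, where 1.35% of all 6127 probe sets past the filter were. Since these genes were picked for that difference, nothing is read from the count. The same 2 were at least 2-fold higher against scrambled alone, where 3.20% of all probe sets were, and against untreated alone, where 2.64% were. With values set to the floor, none of the 7 was at least 2-fold lower against both controls, where 1.06% of all probe sets were, nor against scrambled alone, where 2.82% were, or untreated alone, where 2.20% were. Of the 6 above the floor on the 3 arrays, those of Prkcd and Ppp3ca and the fainter one of Prkcb lay within the control spread against both controls, as did 83.9% of the 4539 such probe sets, and the bright Prkcb probe set exceeded it against untreated only. The differences of Ppp3cb are minima, so whether they lie within the control spread cannot be told. None of the 7 was 2-fold apart between the scrambled and untreated arrays, where 1.70% of all probe sets were higher and 1.40% lower. The 7 lay within the control spread there. That spread is taken from this same comparison, so about 95% of probe sets lie within it by construction, and nothing is read from this. The comparisons with the scrambled and the untreated array share the antisense-labelled array, so they are not independent of each other.

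**Figure D2:**
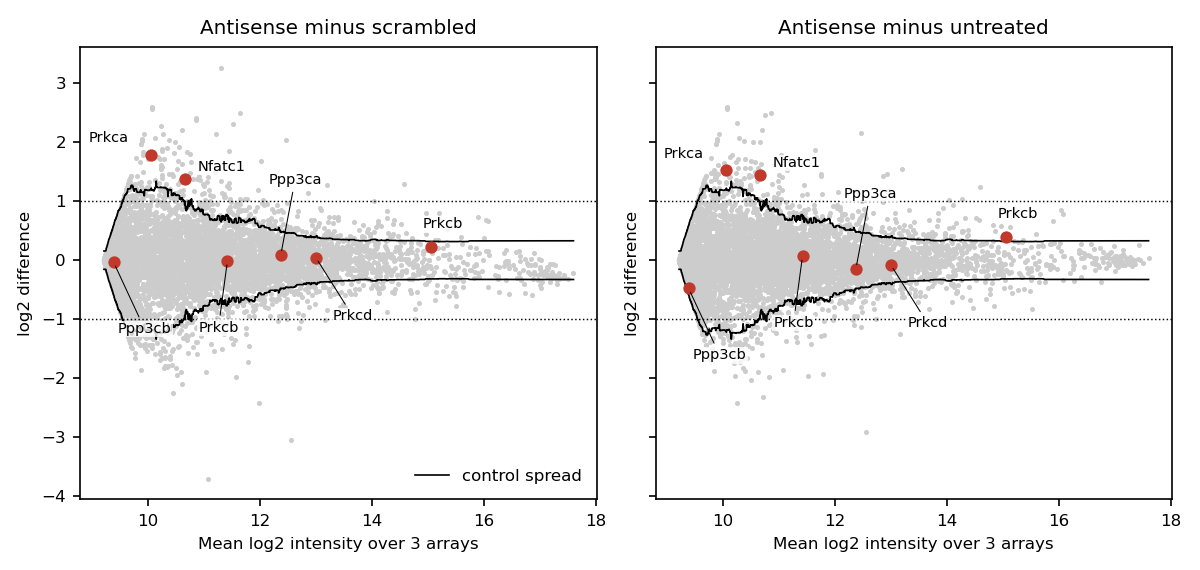
Log2 difference of the antisense-labelled array from the scrambled array (left) and the untreated array (right), against mean log2 intensity, for the 6127 probe sets past the filter (grey) and the 7 of the group (red). Black lines are the control spread and dotted lines mark 2-fold, and Prkca and Nfatc1 lie outside both in either panel.

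The level to which the arrays are scaled bears on these values. The 6 bacterial spike-in controls below an intensity of 50000 were lower on the antisense-labelled array, by a mean log2 value of -0.51 relative to the scrambled array and -0.63 relative to the untreated one. Scaling to them would raise every value above the floor by 0.51 and 0.63 in these comparisons, relative to which changes are then read. Prkca would then differ by 2.30 against scrambled and 2.16 against untreated, and Nfatc1 by 1.89 and 2.07 in the same comparisons. Under that scaling the differences of Prkcd and Ppp3ca from untreated turn positive, to 0.55 and 0.49, and the bright Prkcb probe set differs by 1.03 from untreated. Taking the shift of 0.63 off again returns the earlier differences by construction, so this cannot tell which scaling is right. The 3-prime over 5-prime signal of 18S ribosomal RNA was 8.13 on the antisense-labelled array, 4.48 with the scrambled oligonucleotide and 1.72 in untreated cells. The 5-prime values were 640, 2435 and 4465 in the same order. The first lies little above the floor, so the ratio of 8.13 is imprecise. The part of this in the results was not tested.

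**Figure D3:**
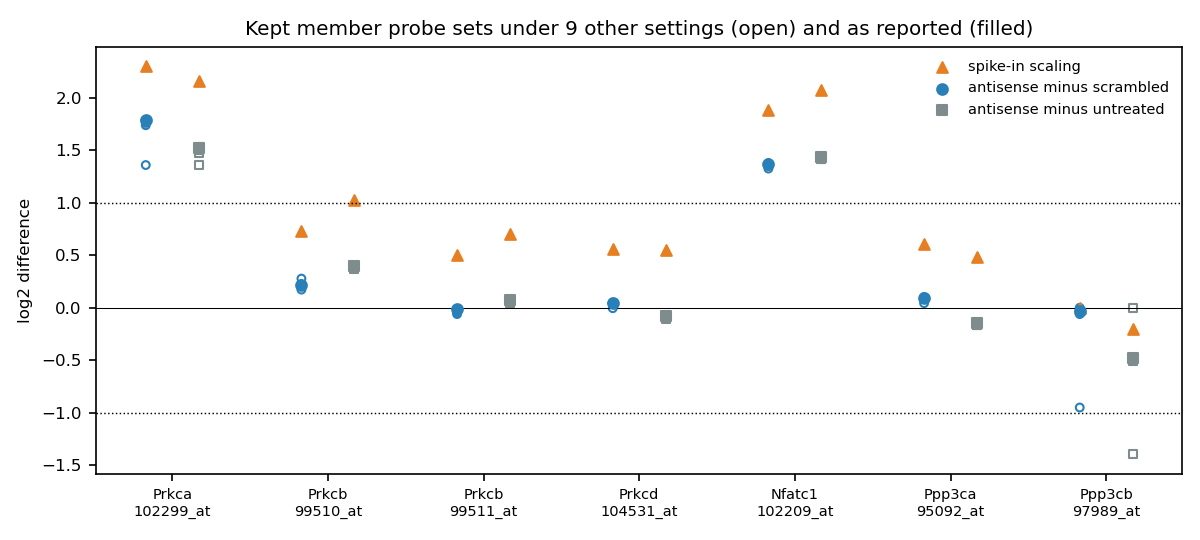
Log2 difference of the antisense-labelled array from the scrambled (circles) and untreated (squares) arrays for the 7 probe sets past the filter, as reported (filled) and under 9 other settings (open, with scaling to spike-in controls as triangles). Prkca and Nfatc1 lie above the dotted 2-fold line throughout, with lowest values of 1.36 and 1.33, the first a minimum set by a higher floor. Of the 9 settings, 3 change only which probe sets count and cannot move a point.

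Other genes of the pathway were taken from lists written by function, with a gene read from its brightest probe set on average. Among the other protein kinase C and related kinases, 8 of 11 genes were on the array and 2 passed the filter, neither 2-fold apart from both controls. Prkce, a calcium-independent isoform gene, read 827 on the antisense-labelled array, against 687 (scrambled) and 669 (untreated), within the control spread. A fainter Prkce probe set, 94161_at, read 301, against 525 (scrambled) and 525 (untreated), all below the floor. Prkch, Prkci, Prkcq, Prkd1, Prkd2 and Prkd3 were at the floor on the 3 arrays in their probe sets. The protein kinase C family was thus read above the floor on the 3 arrays through Prkca, Prkcb, Prkcd and Prkce, the last little above it.

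Of the calmodulin genes, which encode the calcium sensor that activates calcineurin, 2 of 6 listed were on the array. Calm2 read 904 on the antisense-labelled array, against 622 (scrambled) and 756 (untreated), with differences of 0.54 against scrambled and 0.26 against untreated at a control spread of 1.01. Calm4, a calmodulin-like gene of skin, read 831, against 314 (scrambled) and 400 (untreated), both below the floor, and was thus at least 1.39-fold higher than either. Calm2 did not exceed the control spread, and for Calm4 a minimum cannot tell.

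Among the other calcineurin subunits and regulators, 4 of 12 were on the array, 3 passed the filter and none was 2-fold apart from both controls. Ppp3r1, the calcineurin regulatory subunit gene, read 8998 on the antisense-labelled array, against 11346 (scrambled) and 9357 (untreated), with differences of -0.33 from scrambled and -0.06 from untreated at a control spread of 0.37. Rcan1, a calcineurin inhibitor gene that NFAT is known to induce, read 909, against 1063 (scrambled) and 939 (untreated). The antisense-labelled array was thus not the high one for Rcan1. Fkbp1a, whose product binds calcineurin when it holds the drug FK506, read 1857.5 on the antisense-labelled array, against 1033 with the scrambled oligonucleotide and 380 in untreated cells. The untreated value of Fkbp1a lies below the floor, and the gene was at least 3.12-fold higher than that, while its difference from scrambled, 0.85, was within the control spread of 1.19.

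Of the other NFAT genes, the kinases that return NFAT to the cytoplasm and the Homer genes listed with them, 9 of 14 were on the array and 7 passed the filter, with a median difference of -0.07 against scrambled and -0.21 against untreated, which turn to 0.45 and 0.42 with scaling to the spike-in controls. The median of all probe sets past the filter was 0.00 in both comparisons. Nfatc3 was lower in its brightest probe set, 100807_f_at, which read 4926 on the antisense-labelled array, against 9412 (scrambled) and 7468 (untreated). The differences, -0.93 from scrambled and -0.60 from untreated, exceeded the control spread of 0.41, and become -0.42 and 0.03 with scaling to the spike-in controls. A second Nfatc3 probe set, 97975_at, read 2527, against 2574.5 (scrambled) and 2270 (untreated), and differed by -0.03 from scrambled and 0.15 from untreated, so the 2 disagree, and the first can bind transcripts of more than 1 gene. The 3 probe sets of Nfatc2 were below the floor on the 3 arrays.

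Csnk1d, a casein kinase gene, had 1 probe set, 97262_at, at 2449 on the antisense-labelled array, against 743 (scrambled) and 1068 (untreated), which is 1.72 higher than scrambled and 1.20 higher than untreated, the first above and the second within the control spread of 1.23. A brighter, suffixed probe set of Csnk1d, 97263_s_at, read 5207, against 5455 (scrambled) and 6229 (untreated), so these 2 disagree as well. Dyrk1a, a kinase gene of NFAT export, read 479 on the antisense-labelled array, below the floor, against 1157 (scrambled) and 1041.5 (untreated), at least 1.94-fold lower than scrambled and at least 1.75-fold lower than untreated. A fainter Dyrk1a probe set, 92383_at, read 576, against 687 (scrambled) and 469 (untreated). It was at least 1.15-fold lower than scrambled, and with the other 2 values below the floor no difference from untreated is given. Gsk3a, which encodes another NFAT kinase, differed by 0.16 from scrambled and 0.24 from untreated, within the control spread.

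Upstream, 15 of 19 calcium and diacylglycerol signalling genes on the array passed the filter, with medians of -0.21 against scrambled and 0.00 against untreated, or 0.28 and 0.59 with scaling to the spike-in controls, and none was 2-fold apart from both controls. Plcg2, the phospholipase C gene of the B cell antigen receptor, read 3553 on the antisense-labelled array, against 5301 (scrambled) and 4393 (untreated). Its difference of -0.58 from scrambled was slightly above the control spread of 0.56, and that of -0.31 from untreated was within it. Plcg1 read 958, against 686 (scrambled) and 346 (untreated), the last below the floor. Plcb1, a phospholipase C gene regulated by G proteins, read 376 on the antisense-labelled array, against 712 (scrambled) and 1685 (untreated), and already differed by -1.24 between the scrambled and untreated arrays. Pdpk1, which encodes the kinase that primes protein kinase C, read 952 on the antisense-labelled array, against 379.5 (scrambled), below the floor, and 922 (untreated). Of the calmodulin-dependent kinase genes, 5 of 10 were on the array and Camk2d alone passed the filter, at 548 on the antisense-labelled array, below the floor, against 916 (scrambled) and 1058 (untreated).

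Of the protein kinase C substrates and anchors, 17 of 24 were on the array and 9 passed the filter, with medians of -0.31 against scrambled and -0.16 against untreated, which turn to 0.10 and 0.49 with scaling to the spike-in controls. Rasgrp2, an exchange factor gene whose product has a domain like the one that binds diacylglycerol, was the 1 gene at least 2-fold lower than both controls. It read 679 on the antisense-labelled array, little above the floor, against 2088 (scrambled) and 1706 (untreated). With scaling to the spike-in controls, or with the floor at 3 robust standard deviations, no list gene, Rasgrp2 included, was 2-fold lower than both. Marcks, a membrane substrate of protein kinase C, read 1313, against 1895 (scrambled) and 3092 (untreated), and differed by -0.53 from scrambled and -1.24 from untreated, the second above the control spread of 0.85. Marcksl1, its relative, read 1042, against 358.5 (scrambled), below the floor, and 598.5 (untreated), and was higher by at least 0.81 than scrambled and by 0.80 than untreated, the second within the control spread of 0.85. Marcks and Marcksl1 thus lay on opposite sides of the controls. Sqstm1, an adaptor gene whose product binds atypical protein kinase C, read 2347.5 on the antisense-labelled array, against 3887 (scrambled) and 2823.5 (untreated), and its difference of -0.73 from scrambled was above the control spread of 0.63 while that of -0.27 from untreated was within it.

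Of the genes known to be induced through protein kinase C or NFAT in lymphocytes, 23 of 26 were on the array and 12 passed the filter. Of these 12, 8 were higher on the antisense-labelled array than on both controls by any amount and 3 lower, with medians of 0.42 against scrambled and 0.52 against untreated. Over all 6127 probe sets past the filter, 2282 were higher than both controls and 1960 lower. Earlier results for Egr1, Ier3 and Tnf were known when the list was written, so its median is no independent support of a direction. Nr4a1 and Ccl3 passed the filter only through the antisense-labelled array, where they are high, so the count includes 2 genes that had to be higher. Among the 9 genes of the list above the floor on the 3 arrays, 6 exceeded both controls and 2 lay below both, where 1700 of all 4539 such probe sets exceeded both and 1653 lay below. Their median difference was 0.41 against scrambled and 0.64 against untreated.

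Ier3, an immediate-early gene, was the 1 gene of this list at least 2-fold higher than both controls, at 2831, against 1258 (scrambled) and 999 (untreated). Egr1, an immediate-early transcription factor gene, read 4036, against 2086.5 (scrambled) and 1396.5 (untreated), and Irf4, a B cell transcription factor gene chosen for mention after its values were seen, read 24443, against 16268 (scrambled) and 15737 (untreated). These 3 genes exceeded the control spread against both controls. Tnf read 1575 on the antisense-labelled array, against 837 (scrambled) and 886 (untreated), within the control spread, and Fosb went the other way, at 510, below the floor, against 1055 (scrambled) and 1257 (untreated). Il2, Il4, Ifng, Fasl, Cd40lg and Csf2, which NFAT is known to activate in T cells, were at the floor on the 3 arrays.

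**Figure D4:**
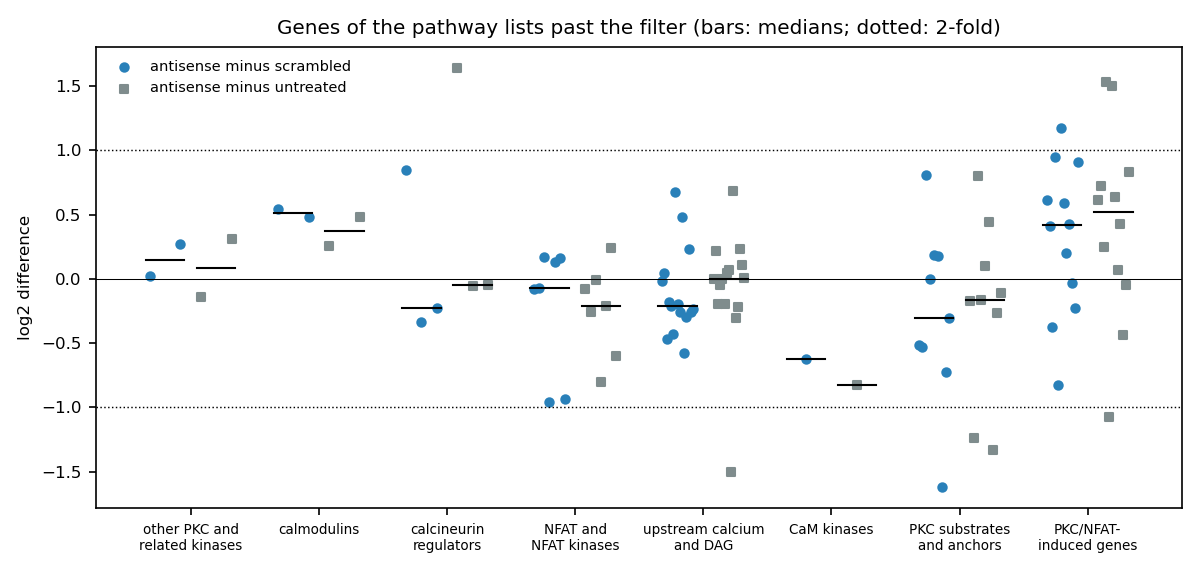
Log2 difference of the antisense-labelled array from the scrambled (circles) and untreated (squares) arrays for the genes of 8 pathway lists past the filter, 1 point per gene and comparison, with the median as a bar and dotted lines at 2-fold. The list of genes induced through protein kinase C or NFAT has medians of 0.42 and 0.52, and that of protein kinase C substrates and anchors -0.31 and -0.16, which turn positive with scaling to the spike-in controls.

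Among 3961 probe sets with 1 symbol and above the floor on the 3 arrays, the pattern most like that of Nfatc1 was that of an Il10 probe set, 100319_at. Likeness is the distance, on the log2 scale, between the differences from scrambled and from untreated, so it rests on 3 arrays. It lay 0.06 from Nfatc1, with differences of 1.31 from scrambled and 1.43 from untreated. The nearness does not extend to the array's own control probe set for Il10, which was not among those compared and read 6341 on the antisense-labelled array, against 3967 (scrambled) and 3393 (untreated), with smaller differences of 0.68 and 0.90. Adgrd1, an adhesion receptor gene, Bgn, a matrix proteoglycan gene read by a family probe set, and Pim1, a survival kinase gene, followed at 0.10, 0.12 and 0.15. Nearest to Prkca was a suffixed probe set of Dda1, a ubiquitin ligase component gene, at 0.08, which read 3014 on the antisense-labelled array, against 859 (scrambled) and 1103 (untreated). Epo, the erythropoietin gene, the interferon gene Ifna5 (also a family probe set) and the Csnk1d probe set 97262_at followed at 0.25, 0.29 and 0.34.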

How the data were processed

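The deposited table holds linear intensity values per probe set of the Affymetrix Murine Genome U74 array A, version 1. Between 24.8% and 27.9% of an array's values are at or below 0, and with 2% trimmed from either end every array averages 1500, which shows a scaling by the authors. The software they used is not given in the sources here. The 3 arrays were then brought to an equal trimmed mean over the 12588 non-control probe sets. Values under 595.9, which is 2 robust standard deviations of the values below 0, were set to it before log2 was taken. The 6127 probe sets with any value above this floor were kept. Where a value lay below the floor, the fold uses the floor and is a minimum. Genes were named from platform annotation, for probe sets with 1 symbol. Precision is limited by the number of arrays.

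The members, lists and settings were chosen with earlier results of these data known. Named from each list were genes at least 2-fold apart from both controls and up to 4 kept genes farthest from the mean control value, and for Prkca and Nfatc1 the 4 probe sets nearest in their differences. Pdk1 stands in the upstream list through a shared alias of Pdpk1. Alternatives were other scalings, floors and filters and leaving out suffixed probe sets. Counting was tested on simulated data. Python 3.11.15, numpy 2.4.6 and pandas 2.3.3 were used.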

Additional observations from a re-analysis of the deposited data

How the results depend on the processing

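Prkca and Nfatc1 were at least 2-fold higher on the antisense-labelled array than on both controls under each of the 6 settings that change values, and with values set to the floor no probe set of the group was 2-fold lower than both. The other 3 settings change only which probe sets count. Prkca ranged from 1.36 to 2.30 against scrambled and from 1.36 to 2.16 against untreated. The 1.36 came with the floor at 3 robust SD, where both controls of Prkca lay below the floor, and is a minimum. Nfatc1 ranged from 1.33 to 1.89 against scrambled and from 1.41 to 2.07 against untreated. For the 7 probe sets past the filter and these 6 settings, 84 differences were recomputed, of which 76 moved by no more than the control spread and 8 by more. No difference of 2-fold or more changed sign, but 4 smaller ones did. With scaling to spike-in controls, Prkcd and Ppp3ca minus untreated and the fainter Prkcb probe set minus scrambled became 0.55, 0.49 and 0.50, against -0.08, -0.14 and -0.01, and with median scaling Prkcd minus scrambled became -0.0044, against 0.04. Of the 8 that moved by more than the control spread, 6 came with scaling to spike-in controls, and 2 were those of Ppp3cb with the floor at 1 robust SD, where it differed by -0.95 from scrambled and -1.40 from untreated. The background moved more. Against 83 higher and 65 lower probe sets, there were 517 and 19 with scaling to spike-in controls, 161 and 182 with the floor at 1 robust SD, 51 and 29 with it at 3 robust SD, and 37 and 38 among probe sets above the floor on the 3 arrays. Against 1 gene higher and 1 lower over the pathway lists, there were 6 and 0 with scaling to spike-in controls, 4 and 3 with the floor at 1 robust SD, 1 and 0 with it at 3 robust SD, and 2 and 1 without suffixed probe sets. The last rests on fewer probe sets, which leaves 97262_at to stand for Csnk1d. Scaling to spike-in controls adds 0.51 against scrambled and 0.63 against untreated to differences between values above the floor. Another floor changes the differences of values set to it. How much of each count this accounts for was not tested. No paired analysis was possible because each group has 1 array, and for the same reason no array could be left out. Low signal limits Prkcz, Ppp3cb and the control values of Prkca, which lie at or near the floor.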
